A study of Mus musculus with 6 samples.

Results

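Cadherins are calcium-dependent adhesion proteins of the cell surface, and the genes described here are 42 members of that family in the RNA of 6 mouse brain tumors: 23 cadherins whose symbol is Cdh and a number, 11 non-clustered protocadherins whose symbol is Pcdh and a number, Celsr1 to Celsr3, Fat1 to Fat4 and Dchs1. They were chosen by symbol from the 24537 rows of the deposited table, and the clustered protocadherins are not among them. Dchs2 was not analysed here.

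The tumors came from in utero electroporation of CD-1 IGS mice, in which DNA constructs are driven into cells of the embryonic brain by an electric pulse. Per the titles, all 6 carried a mutant platelet-derived growth factor receptor (PdgfraD482V) and DNp53, a p53 construct; 3 libraries are titled FOXR2, for a forkhead transcription factor added to these, and 3 are titled Control. The sources used here do not give the promoters of the constructs, the age of the mice or whether each tumor came from a separate animal. P-values therefore cover only the spread between the 6 samples, which may be partly technical. Xist, expressed in females, had 1, 538 and 2 reads in FOXR2-titled libraries and 2, 576 and 800 in Control-titled ones. Ddx3y, on the Y chromosome, had 924, 0 and 443 reads in FOXR2-titled libraries and 499, 0 and 1 in Control-titled ones. By these genes FOXR2 replicates 1 and 3 and Control replicate 1 were male and the rest female. Neither group thus came from a single animal, and sex was not balanced between the groups. The group word in the authors' deposited sheet is the opposite one for all 6 libraries, Foxr2 itself (22, 1 and 7 reads in FOXR2-titled libraries and 4, 10 and 7 in Control-titled ones) does not decide between them, and every direction below turns round if the sheet is right.

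Classical cadherins bind the same or a related cadherin on a neighbouring cell and are tied to the actin skeleton inside by catenins. Type I cadherins include the epithelial and the neural cadherin, and type II cadherins mark nuclei, layers and migrating populations of the developing brain. Non-clustered protocadherins give weaker adhesion and act in cell sorting, axon growth and synapses. Celsr proteins are seven-pass cadherins of planar cell polarity, and Fat and Dachsous cadherins bind each other across cells to guide polarity and growth.

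Libraries held 13429489 to 17927025 reads. Values below are CPM, read counts scaled to a common library size with TMM factors, and in each set of 3 they stand in the order of replicates 1, 2 and 3. A floor of 3 reads corresponded to 0.174 to 0.219 CPM. The glial lineage genes Olig2 and Sox10 were abundant in every library, at 510.2 to 813 CPM in FOXR2-titled libraries and 446 to 652 CPM in Control-titled ones for Olig2 and 348 to 588 CPM in FOXR2-titled libraries and 331 to 759 CPM in Control-titled ones for Sox10, in tumors labelled only as mouse brain tumor cells. FOXR2 replicate 2 stood apart: summed markers of microglia and macrophages reached 1233 CPM there and 4.76 to 14.5 CPM in the other libraries. Summed markers of mature oligodendrocytes varied widely within both groups. They came to 220, 5175 and 1434 CPM in FOXR2-titled libraries and 1693, 285 and 3888 CPM in Control-titled ones.

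The 250 bases before the annotated start are printed for the member of each family with the smallest p among those higher in the libraries titled FOXR2. They are also printed for Fat1, which had the smallest p among those lower, with overlapping groups. These genes were picked from the 28 of 42 members with an entry in the RefSeq promoter table (GRCm38.p6, the table's build, not the authors'). Cdh13, with the smallest p of all members, has no entry there. Capitals mark a match to 3 short motifs searched on both strands, which did not overlap here: CCGGAAG of ETS factors (the family in the title of the series), TGTTTAC of forkhead factors, and CAGGTG, an E-box read by Snail and Zeb repressors of cadherins.
Cdh22, chr2:165234738-165234987, minus strand: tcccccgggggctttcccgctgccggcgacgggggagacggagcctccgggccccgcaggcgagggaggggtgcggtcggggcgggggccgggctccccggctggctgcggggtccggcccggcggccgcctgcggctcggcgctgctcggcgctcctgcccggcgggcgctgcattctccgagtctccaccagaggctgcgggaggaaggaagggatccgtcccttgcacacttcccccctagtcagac
Pcdh9, chr14:93890670-93890919, minus strand: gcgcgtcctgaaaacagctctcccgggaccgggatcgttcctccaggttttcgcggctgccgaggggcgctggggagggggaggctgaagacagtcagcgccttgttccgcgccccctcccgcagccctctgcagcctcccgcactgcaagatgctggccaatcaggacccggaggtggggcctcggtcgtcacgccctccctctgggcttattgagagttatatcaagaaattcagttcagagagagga
Celsr3, chr9:108825795-108826044, plus strand: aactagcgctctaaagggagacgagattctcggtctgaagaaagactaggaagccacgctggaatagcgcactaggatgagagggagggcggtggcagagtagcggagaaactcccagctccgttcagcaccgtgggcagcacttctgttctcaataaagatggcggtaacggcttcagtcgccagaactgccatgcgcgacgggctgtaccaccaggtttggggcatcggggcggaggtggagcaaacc
Fat4, chr3:38886690-38886939, plus strand: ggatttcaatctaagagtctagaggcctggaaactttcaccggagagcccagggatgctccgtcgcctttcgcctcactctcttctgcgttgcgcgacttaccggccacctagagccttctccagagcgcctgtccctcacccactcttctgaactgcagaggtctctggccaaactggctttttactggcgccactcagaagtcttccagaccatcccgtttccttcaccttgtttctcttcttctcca
Fat1, chr8:44949958-44950207, plus strand: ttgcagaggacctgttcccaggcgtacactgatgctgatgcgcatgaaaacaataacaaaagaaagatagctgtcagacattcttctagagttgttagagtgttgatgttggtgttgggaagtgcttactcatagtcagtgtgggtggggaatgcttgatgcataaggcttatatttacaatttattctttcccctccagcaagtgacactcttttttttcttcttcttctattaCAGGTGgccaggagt

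The window of Cdh22 was the richest in G and C of these at 77.6%, and that of Fat1 the poorest at 42.00%. The Fat1 window precedes a start 14761 bases downstream of the first one in GENCODE M21, so it is not the only possible promoter of that gene. The starts behind the Cdh22 and Celsr3 windows lay 116 and 275 bases from the nearest transcript start in GENCODE M21. CAGGTG was found in 5 of 31 member windows (16.1%), against 17.2% of all 32851 windows in the table, in the genes Cdh7, Celsr2, Fat1 and Pcdh15. CCGGAAG was found in 0 of 31 member windows, against 6.91% of all windows, and TGTTTAC in 0 of 31, against 3.17%. A match is a string of letters and not a shown binding site.

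The comparison asks how the cadherin family differed between tumors titled FOXR2 and tumors titled Control. No member passed edgeR's adjusted threshold of 0.05, but many lay higher in the libraries titled FOXR2. Of 42 members, 30 passed the filter on low counts and were tested with all 13101 genes that did. By edgeR 0 of these 30 were called, against 2.29% of all tested genes (0.908% higher and 1.38% lower), and the smallest adjusted p was 0.0577. At an unadjusted p under 0.05 there were 16 higher and 0 lower, against 11.9% higher and 13% lower of all tested genes. DESeq2, another count test, called 9 of 31 members with an adjusted p higher and 0 lower, against 6.73% higher and 6.7% lower of all genes: Cdh6, Cdh10, Cdh11, Cdh13, Cdh19, Cdh22, Celsr3, Fat4 and Pcdh9. At a looser edgeR adjusted p under 0.1 there were 9 members higher and 0 lower, those same genes but with Cdh8 in place of Fat4, against 9.9% of all tested genes in either direction and 4.27% higher.

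The fitted log2 fold change was above 0 for 25 of the 30 tested members and 50.7% of all tested genes, with a median of 0.76 against 0.01. All 3 libraries titled FOXR2 lay above all 3 titled Control in 17 of the 30 tested members, against 13.1% of tested genes, and the reverse held for 0 members, against 17.2% (30.3% of genes in either direction). Over all 42 members with a row the first count was 18. The added gene was Cdh18, with 1, 6 and 6 reads in FOXR2-titled libraries and 0, 0 and 0 in Control-titled ones, too few to be tested. The matching share over all rows of the table was not computed. Cdh8 passed the filter through the libraries titled FOXR2 alone, so a difference of some size followed from its being tested. The filter was met in fewer than 3 libraries titled Control for Cdh8, Cdh15, Cdh23, Celsr1 and Pcdh18.

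**Figure D1:**
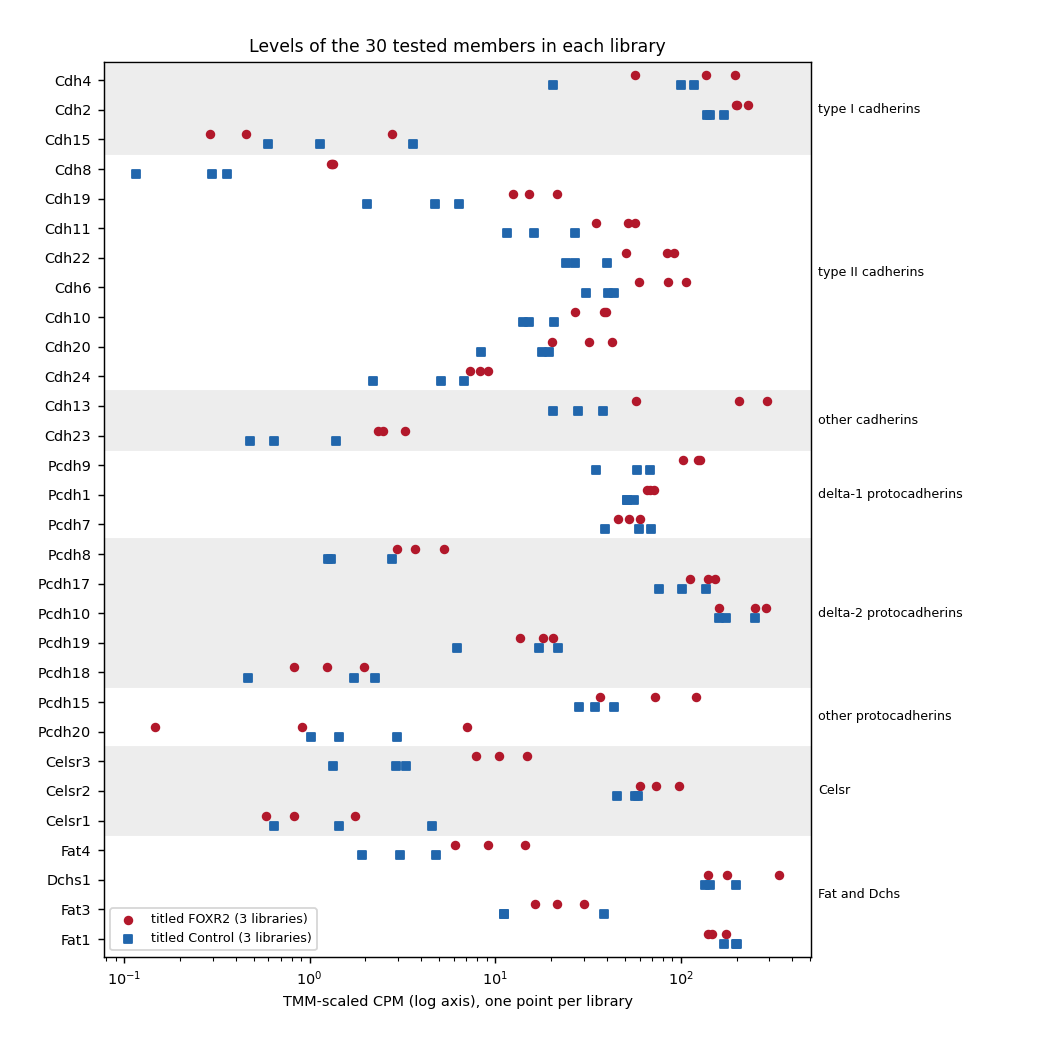
CPM of the 30 tested members in each library on a log axis, with red circles for the 3 libraries titled FOXR2 above blue squares for the 3 titled Control, grouped by subfamily. In all 8 tested type II cadherins the red points lie right of the blue ones, against 13.1% of all tested genes. In most delta-2 protocadherins the points mix.

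Type I cadherins. Cdh2, the neural cadherin, had 202, 229 and 198 CPM in FOXR2-titled libraries, against 171, 143 and 139 CPM in Control-titled ones. All 3 libraries titled FOXR2 were higher, by a log2 difference of 0.48 ± 0.17 at an edgeR adjusted p of 0.150, at an unadjusted p of 0.0266. Cdh4, the retinal cadherin, had 137, 56.6 and 197 CPM in FOXR2-titled libraries, against 100.2, 118 and 20.6 CPM in Control-titled ones. Control replicate 3 was far below the others, the groups overlapped, and the fit gave a log2 difference of 0.71 ± 0.66 at an edgeR adjusted p of 0.547. Without that library the log2 fold change of Cdh4 was 0.25. Cdh15, a muscle cadherin, was scarce, with 7, 44 and 4 reads in FOXR2-titled libraries and 10, 19 and 62 in Control-titled ones. Its highest levels were in FOXR2 replicate 2 and Control replicate 3 and the groups overlapped.

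Type II cadherins. All 13 numbered members of this subfamily had a row and 8 were tested. In each of the 8 the groups did not overlap and the libraries titled FOXR2 were higher, against 13.1% of all tested genes. Of the 8, 7 were higher at an unadjusted p under 0.05, against 11.9% of all tested genes. Summed over the 13 genes the subfamily held 279, 269 and 357 CPM in FOXR2-titled libraries and 147, 139.6 and 99.3 CPM in Control-titled ones, so the lowest library titled FOXR2 was above the highest titled Control. The median log2 fold change of the 8 was 1.22, with a range of 0.81 to 2.32. Cdh8 is in both counts and gave the upper end of that range. It passed the filter through the libraries titled FOXR2 alone, so a difference of some size followed from its being tested.

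Cdh22, a cadherin of the brain and pituitary, had 92.3, 50.9 and 84.3 CPM in FOXR2-titled libraries, against 26.9, 40.3 and 24.1 CPM in Control-titled ones. The gap between the groups was narrowest against Control replicate 2, and the fit gave a log2 difference of 1.32 ± 0.30 at an edgeR adjusted p of 0.0645. Cdh6, found in the kidney and at borders of the embryonic brain, had 59.3, 85.1 and 107 CPM in FOXR2-titled libraries, against 40.7, 43.8 and 30.8 CPM in Control-titled ones. It gave a log2 difference of 1.13 ± 0.26 at an edgeR adjusted p of 0.0666. Cdh10, a neuronal cadherin, had 38.6, 26.8 and 39.7 CPM in FOXR2-titled libraries, against 20.7, 14.1 and 15.2 CPM in Control-titled ones. FOXR2 replicates 1 and 3 were close to each other and replicate 2 was lower, and the fit gave a log2 difference of 1.07 ± 0.26 at an edgeR adjusted p of 0.0699.

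Cdh11, the mesenchymal or osteoblast cadherin, had 34.9, 57.01 and 51.7 CPM in FOXR2-titled libraries, against 27.1, 11.6 and 16.2 CPM in Control-titled ones. FOXR2 replicate 2 was its highest library, and the difference came to a log2 difference of 1.39 ± 0.35 at an edgeR adjusted p of 0.0783. Summed markers of fibroblasts and meninges, cells in which Cdh11 is well known, were also highest in that library at 49.8 CPM and ranged from 3.98 to 8.68 CPM in the other 2 titled FOXR2 and from 2.88 to 4.30 CPM in those titled Control. In bulk tissue, more cells of a type and more RNA per cell cannot be told apart. Without FOXR2 replicate 2 the log2 fold change of Cdh11 was 1.24.

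Cdh19, expressed in the neural crest and Schwann cell lineage and in some glia, had 12.5, 15.3 and 21.5 CPM in FOXR2-titled libraries, against 6.42, 4.77 and 2.03 CPM in Control-titled ones. It had the second-largest difference among type II cadherins, after Cdh8, with a log2 difference of 1.90 ± 0.46 at an edgeR adjusted p of 0.0722. The 6 Schwann cell markers summed to 88.4 to 122 CPM in FOXR2-titled libraries and 49.8 to 83.9 CPM in Control-titled ones. Most of the sum came from Pmp22 and Egr2. Their part in the result was not tested.

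Cdh20 had 32.2, 20.4 and 42.5 CPM in FOXR2-titled libraries, against 19.4, 17.9 and 8.42 CPM in Control-titled ones. FOXR2 replicate 2 lay just above Control replicate 1, and the fit gave a log2 difference of 1.06 ± 0.40 at an edgeR adjusted p of 0.161. Cdh8, a neuronal cadherin of cortex and striatum, was scarce, with 20, 21 and 18 reads in FOXR2-titled libraries and 6, 5 and 2 in Control-titled ones. Its 3 levels in libraries titled FOXR2 were nearly equal, at 1.30, 1.33 and 1.31 CPM, against 0.360, 0.298 and 0.116 CPM in those titled Control, and the fit gave a log2 difference of 2.32 ± 0.58 at an edgeR adjusted p of 0.0757. Cdh24 was the tested type II member without an unadjusted p under 0.05, at 8.25 ± 0.904 CPM in FOXR2-titled libraries and 4.70 ± 2.32 CPM in Control-titled ones (mean ± SD, n = 3 each; edgeR adjusted p of 0.300).

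Cdh13 and Cdh23. Cdh13, the T-cadherin, has no cytoplasmic part and is held to the membrane by a lipid anchor. It had 292, 57.5 and 206 CPM in FOXR2-titled libraries, against 20.6, 28.1 and 37.99 CPM in Control-titled ones. FOXR2 replicates 1 and 3 stood far above the rest, while FOXR2 replicate 2 was closer to the libraries titled Control, though still above them. This was the largest fitted difference of the 30 tested members, a log2 difference of 2.68 ± 0.57 at an edgeR adjusted p of 0.0577. Without FOXR2 replicate 2 edgeR called Cdh13 higher, at 3.11 on the log2 scale (adjusted p = 0.0270), and over the 6 fits that leave out 1 library it ranged from 2.20 to 3.11 with adjusted p of 0.0270 to 0.196.

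Cdh23, a cadherin of the tip links of hair cells, was scarce, with 38, 37 and 45 reads in FOXR2-titled libraries and 23, 8 and 11 in Control-titled ones. Its groups did not overlap and the fit gave a log2 difference of 1.69 ± 0.53 at an edgeR adjusted p of 0.116. In the ear it pairs with Pcdh15, described among the protocadherins.

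**Figure D2:**
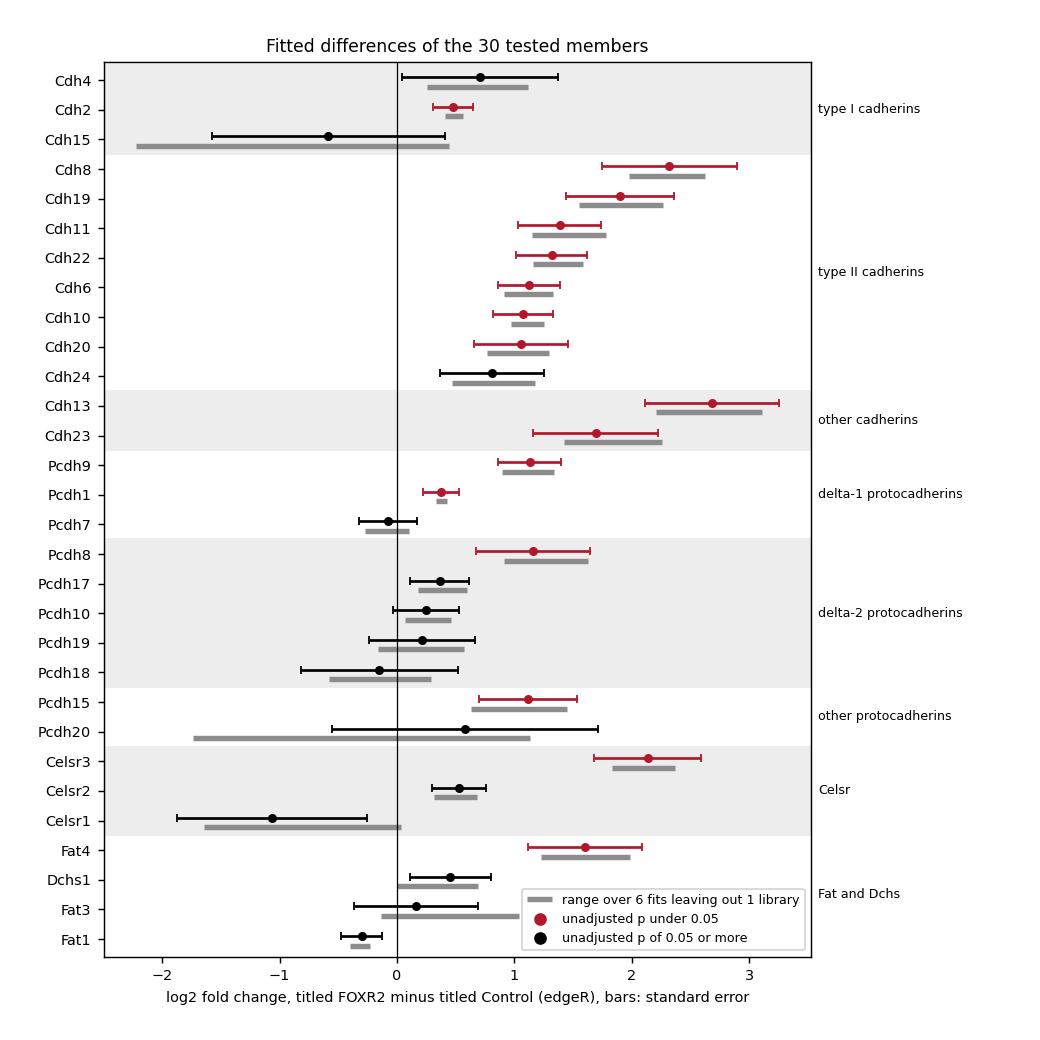
Fitted log2 fold change (libraries titled FOXR2 minus titled Control) of the 30 tested members with its standard error, red where the unadjusted p was under 0.05, and in grey the range over 6 fits that each leave out 1 library. All 16 red members lie right of 0 with their whole grey range, from 0.37 for Pcdh1 to 2.68 for Cdh13. They were picked by their p in these same libraries, so their sign could hardly turn when 1 was left out.

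Protocadherins. Of 11 members 10 were tested, and 8 were fitted above 0, against 50.7% of all tested genes. The median log2 fold change of the 10 was 0.37, against 0.01. At an unadjusted p under 0.05 there were 4 higher and 0 lower, against 11.9% and 13% of all tested genes. The subfamilies were mixed. Pcdh9, a delta-1 protocadherin of developing neurons, had 127, 103 and 123 CPM in FOXR2-titled libraries, against 68.7, 58.4 and 34.9 CPM in Control-titled ones. It had the smallest p of the protocadherins, with a log2 difference of 1.13 ± 0.27 at an edgeR adjusted p of 0.0697. Pcdh1, of the same group, had 65.4, 67.95 and 71.7 CPM in FOXR2-titled libraries, against 51.1, 55.7 and 51.6 CPM in Control-titled ones. The spread within each group was small and the groups did not overlap, with a log2 difference of 0.37 ± 0.15 at an edgeR adjusted p of 0.191 and an unadjusted p of 0.0449. Pcdh7, the third delta-1 gene, stood at 53.00 ± 7.29 CPM in FOXR2-titled libraries and 56.02 ± 15.3 CPM in Control-titled ones (mean ± SD, n = 3 each), with overlapping groups.

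Several delta-2 protocadherins bind the WAVE complex, which drives actin branching. Pcdh10, the most abundant per length of the 11, had 287, 160.0 and 252 CPM in FOXR2-titled libraries, against 253, 176 and 161 CPM in Control-titled ones. The groups overlapped and the fit gave a log2 difference of 0.25 ± 0.28 at an edgeR adjusted p of 0.627. Pcdh17 stood at 135 ± 20.6 CPM in FOXR2-titled libraries and 105 ± 30.2 CPM in Control-titled ones (mean ± SD, n = 3 each; edgeR adjusted p of 0.411). Pcdh19, an X-linked gene whose loss causes epilepsy in humans, stood at 17.5 ± 3.53 CPM in FOXR2-titled libraries and 15.1 ± 7.98 CPM in Control-titled ones (mean ± SD, n = 3 each), and in these overlapping groups Control replicate 3 was the lowest library. Pcdh8, also called arcadlin, had 5.28, 2.97 and 3.72 CPM in FOXR2-titled libraries, against 1.26, 1.31 and 2.79 CPM in Control-titled ones. Control replicate 3 lay just below FOXR2 replicate 2, and the fit gave a log2 difference of 1.16 ± 0.48 at an edgeR adjusted p of 0.195. Pcdh18 was scarce, at 0.823 to 1.97 CPM in the libraries titled FOXR2 and 0.465 to 2.26 CPM in those titled Control.

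Pcdh15, a tip-link partner of Cdh23 in the ear that oligodendrocyte precursors also express, had 121, 36.7 and 72.9 CPM in FOXR2-titled libraries, against 28.5, 43.9 and 34.3 CPM in Control-titled ones. FOXR2 replicate 2 fell below Control replicate 2, so the groups overlapped, and the fit gave a log2 difference of 1.11 ± 0.42 at an edgeR adjusted p of 0.160. Markers of oligodendrocyte precursors (8 of 8 with a row) summed to 3216 to 4408 CPM in FOXR2-titled libraries and 2207 to 3425 CPM in Control-titled ones, and FOXR2 replicate 1 was the highest library for both. Without FOXR2 replicate 1 the log2 fold change of Pcdh15 was 0.63, and without FOXR2 replicate 2 it was 1.45. The part of precursor content in this was not tested.

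Celsr genes. Celsr3, which guides long axon tracts of the forebrain, had 14.9, 10.4 and 7.88 CPM in FOXR2-titled libraries, against 3.30, 2.92 and 1.34 CPM in Control-titled ones. Every FOXR2-titled library lay well above the highest Control-titled one, and the fit gave a log2 difference of 2.13 ± 0.45 at an edgeR adjusted p of 0.0577, with 1.83 to 2.37 over the fits that leave out 1 library. Celsr2, of ependymal and neural cells, had 73.7, 60.1 and 98.3 CPM in FOXR2-titled libraries, against 58.9, 56.7 and 45.3 CPM in Control-titled ones. FOXR2 replicate 2 lay just above Control replicate 1, with a log2 difference of 0.53 ± 0.23 at an edgeR adjusted p of 0.209. Celsr1, of progenitors and epithelia, had 27, 13 and 8 reads in FOXR2-titled libraries and 24, 77 and 11 in Control-titled ones. Control replicate 2 held most of the reads of that group, and without it the fitted log2 fold change of Celsr1 was 0.03 in place of -1.06.

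Summed markers of neurons were also higher in the libraries titled FOXR2. The 13 neuron markers summed to 416 to 524 CPM in FOXR2-titled libraries and 176 to 299.6 CPM in Control-titled ones, without overlap. Of 11 tested, 5 had an unadjusted p under 0.05 higher and 1 lower, against 11.9% and 13% of all tested genes. Rbfox3, a nuclear protein of mature neurons, had 157, 50 and 30 reads in FOXR2-titled libraries and 3, 6 and 22 in Control-titled ones, where FOXR2 replicate 1 was highest, as it was for Celsr3. The part of neuronal cells or neuron-like tumor cells in the values of Celsr3, Cdh8, Cdh10 and Pcdh9 was not tested.

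Fat and Dachsous genes. Fat1, the giant cadherin with a growth-restraining role, had 141, 175 and 147 CPM in FOXR2-titled libraries, against 200.2, 199 and 170.4 CPM in Control-titled ones. It was the most abundant Fat gene per length and was lower by the fit, with overlapping groups and a log2 difference of -0.30 ± 0.17 at an edgeR adjusted p of 0.331. Fat4, the receptor of Dchs1, had 14.5, 9.17 and 6.06 CPM in FOXR2-titled libraries, against 4.80, 1.91 and 3.08 CPM in Control-titled ones. All 3 libraries titled FOXR2 were higher, with a log2 difference of 1.60 ± 0.48 at an edgeR adjusted p of 0.108. Dchs1 had 339, 178 and 141 CPM in FOXR2-titled libraries, against 135, 199 and 145 CPM in Control-titled ones. FOXR2 replicate 1 was far above all others, which overlapped, and without it the log2 fold change of 0.46 became -0.0015. Fat3 had 30.2, 16.3 and 21.5 CPM in FOXR2-titled libraries, against 11.1, 38.6 and 11.2 CPM in Control-titled ones. Control replicate 2 was the highest and the fit gave a log2 difference of 0.16 ± 0.53 at an edgeR adjusted p of 0.875, so Fat4 and Fat1 had fitted values of opposite sign and Fat3 was close to 0; the differences between Fat genes were not tested.

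Levels between genes were compared per length, as read counts per kilobase of the longest annotated transcript, scaled to the same total in every library. On this scale Cdh2 ranked first of the 42 members over all libraries and Cdh13 second. Cdh2 averaged 99.7 ± 8.07 in FOXR2-titled libraries and 62.98 ± 12.2 in Control-titled ones (mean ± SD, n = 3 each). Cdh13 averaged 113 ± 71.3 in FOXR2-titled libraries and 15.1 ± 3.57 in Control-titled ones, so that it was first in FOXR2 replicates 1 and 3 and Cdh2 was first in FOXR2 replicate 2 and in all 3 libraries titled Control. Among the 23 cadherins Cdh13 took 37.8%, 11.9% and 26.9% of the summed level in FOXR2-titled libraries and 6.20%, 8.62% and 15.6% in Control-titled ones, and Cdh2 took 20.4%, 37.1% and 20.2% of the summed level in FOXR2-titled libraries and 40.1%, 34.3% and 44.7% in Control-titled ones.

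After these came Pcdh10, Dchs1, Cdh4, Cdh22, Pcdh9, Fat1, Pcdh1 and Pcdh17, with means over all 6 libraries from 56.9 to 22.9. Pcdh10 averaged 65.1 ± 18.1 in FOXR2-titled libraries and 48.6 ± 16.1 in Control-titled ones, and Dchs1 46.7 ± 21.8 in FOXR2-titled libraries and 29.7 ± 5.78 in Control-titled ones. Pcdh10 lay above Dchs1 in each of the 6 libraries, although their ranges overlapped in the libraries titled FOXR2 and nearly met in those titled Control, where the lowest level of Pcdh10 was 37.02 and the highest of Dchs1 36.3. Fat1 (23.98 ± 2.90 in FOXR2-titled libraries and 25.8 ± 3.90 in Control-titled ones) was nearer to Dchs1 in the libraries titled Control than in those titled FOXR2.

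**Figure D3:**
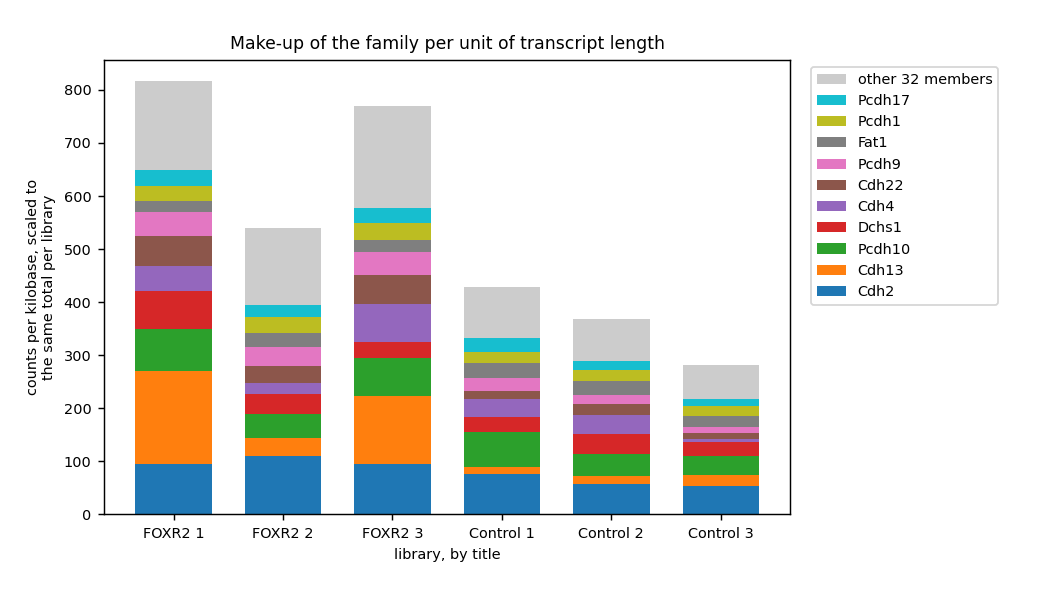
Counts per kilobase scaled to the same total per library, stacked for the 10 members with the highest mean and the other 32, with the 3 libraries titled FOXR2 left of the 3 titled Control. The Cdh13 segment is 175 and 127 in FOXR2 replicates 1 and 3, and Cdh2 is the bottom segment of 54.3 to 109 in every library.

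The 12 members that failed the filter held 7, 90 and 18 reads in all in FOXR2-titled libraries and 7, 5 and 14 in Control-titled ones. FOXR2 replicate 2 held the highest level of 7 of the 12. Cdh1, the epithelial cadherin, had 0, 22 and 2 reads in FOXR2-titled libraries and 1, 0 and 6 in Control-titled ones, and Epcam, an epithelial adhesion gene, had 0, 48 and 0 reads in FOXR2-titled libraries and 7, 5 and 151 in Control-titled ones. Both genes were low or at 0 outside FOXR2 replicate 2 and Control replicate 3, and the 9 markers of epithelium and choroid plexus summed to 25.5 and 9.35 CPM there, against 0.219 to 1.07 CPM elsewhere. Epcam is one of these 9 and made up 8.77 CPM of the sum in Control replicate 3. In FOXR2 replicate 2 Ttr, a choroid plexus gene, and the keratin gene Krt8 gave 9.43 and 5.38 CPM.

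Cdh5, the endothelial cadherin, had 0, 24 and 0 reads in FOXR2-titled libraries and 1, 1 and 2 in Control-titled ones. Of other endothelial genes Pecam1 had 6, 32 and 3 reads in FOXR2-titled libraries and 1, 1 and 6 in Control-titled ones, and Tie1 had 0, 20 and 2 reads in FOXR2-titled libraries and 0, 0 and 3 in Control-titled ones. The full list of 12 endothelial markers did not single out that library, at 29.2 to 32.6 CPM in FOXR2-titled libraries and 21.6 to 37.4 CPM in Control-titled ones. Cdh12, a neuronal type II cadherin, had 0, 22 and 4 reads in FOXR2-titled libraries and 0, 0 and 0 in Control-titled ones.

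Cdh18, of the same subfamily, had 1, 6 and 6 reads in FOXR2-titled libraries and 0, 0 and 0 in Control-titled ones. It was at 0 in every library titled Control and its counts were too few to be tested. Cdh3, Cdh16, Cdh17 and Pcdh12 had at most 5 reads in any library. Cdh7, Cdh9, Cdh26 and Fat2 had at most 2. In a library where a gene had 0 reads, a level of up to the floor of 3 reads remained possible. Pcdh20 was tested and had the same outlying library, with 14, 111 and 2 reads in FOXR2-titled libraries and 24, 17 and 51 in Control-titled ones. Without FOXR2 replicate 2 its log2 fold change of 0.58 became -1.74.

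**Figure D4:**
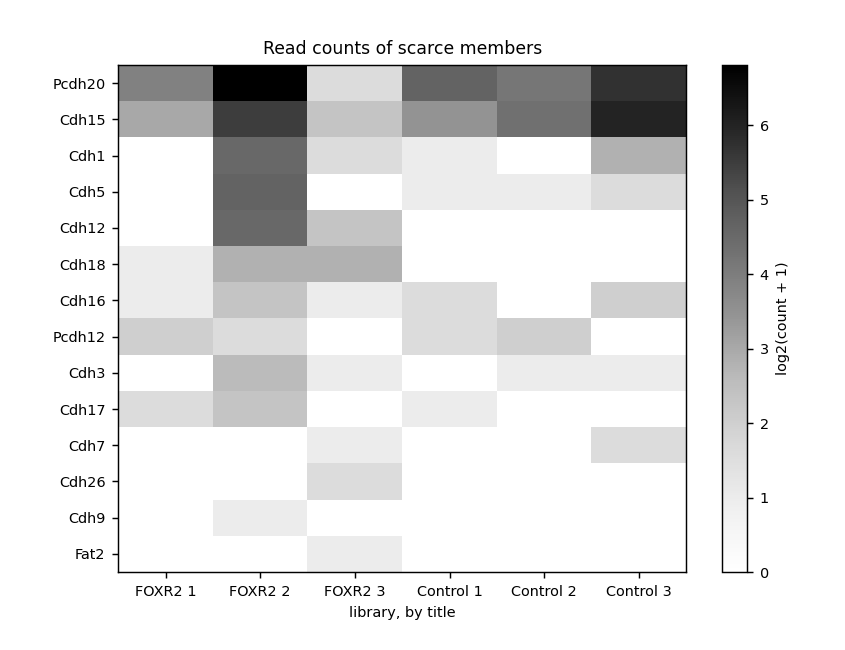
Reads of the 12 members that failed the filter and of Pcdh20 and Cdh15, shaded by log2(count + 1), with the libraries titled FOXR2 left of those titled Control. The dark column is FOXR2 replicate 2, with 24 reads of Cdh5 and 22 each of Cdh1 and Cdh12.

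Transcript length moved with the fitted differences across all genes. Median log2 fold change climbed with each decile of transcript length, at -0.23 in the shortest decile of tested genes and 0.30 in the longest. Of the 30 tested members 14 were in the longest decile, where 22.9% of genes had an unadjusted p under 0.05 in the higher direction. Across tested genes Spearman's rho of log2 fold change with length was 0.23, a description over genes that share the 6 libraries. The 8 tested type II cadherins were all longer than the median of tested genes, 3247 bases. Cdh6, at 8167 bases, was in the longest decile, and the other 7, at 3407 to 5647 bases, were not.

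When each library was corrected for length and GC content of transcripts, 13 members had an unadjusted p under 0.05 higher and Fat1 lower. Of all 13101 tested genes 10.1% had one higher, and 3106 had one in either direction. The median log2 fold change of the 30 was 0.58 against -0.04. Cdh13 had 2.62, Cdh8 2.18, Cdh19 1.79, Celsr3 1.79 and Cdh22 1.20 in that fit, and Fat1 -0.68. Cdh2, Pcdh1 and Pcdh15 no longer had an unadjusted p under 0.05 in that fit, at 0.30, 0.19 and 0.72. Celsr2 had 0.17.

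**Figure D5:**
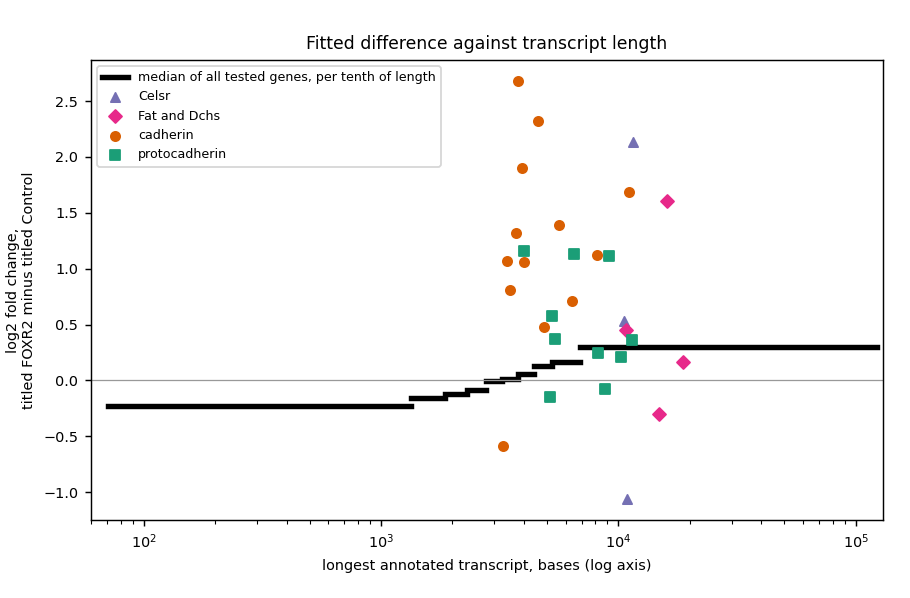
Fitted log2 fold change (libraries titled FOXR2 minus titled Control) of the 30 tested members against the length of the longest annotated transcript on a log axis, with black bars for the median of all tested genes in each decile of length. The black bars climb to 0.30, and most cadherins between 3251 and 11096 bases lie above them.

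Most partner genes of the family passed neither count test. Of 86 genes with a row on 6 lists of catenins, polarity partners, the Hippo pathway, proteases, actin partners and cadherin repressors, 79 were tested. By edgeR 0 were called higher and 1 lower, against 0.908% and 1.38% of all tested genes, and by DESeq2 7 higher and 2 lower, against 6.73% and 6.7%. The fitted value was above 0 for 48 of the 79, against 50.7% of all tested genes, and the median log2 fold change was 0.14 against 0.01. At an unadjusted p under 0.05 there were 11 higher and 3 lower partner genes, against 11.9% and 13% of all tested genes. One of the 11 is Ctgf, described with the Hippo pathway. The difference between members and partners was not tested.

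Among planar polarity genes, which act with Celsr proteins, 15 were tested. The called gene was Fuz, a polarity effector of cilia, at 10.05, 10.2 and 6.06 CPM in FOXR2-titled libraries, against 28.8, 23.7 and 35.6 CPM in Control-titled ones. Its groups were far apart, with a log2 difference of -1.74 ± 0.30 at an edgeR adjusted p of 0.0437, and this call was lost whichever single library was left out (edgeR adjusted p of 0.0516 to 0.158). Prickle2, a core polarity protein, had 44.4, 22.4 and 59.98 CPM in FOXR2-titled libraries, against 11.8, 6.68 and 12.9 CPM in Control-titled ones, with a log2 difference of 2.01 ± 0.42 at an edgeR adjusted p of 0.0565.

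Among 14 tested catenins and adaptors, Ctnna2, the neuronal alpha-catenin that links cadherins to actin, had 111, 92.8 and 173 CPM in FOXR2-titled libraries, against 43.3, 37.5 and 69.5 CPM in Control-titled ones, with a log2 difference of 1.33 ± 0.33 at an edgeR adjusted p of 0.0738. Jup, or plakoglobin, had 15.99, 18.7 and 39.04 CPM in FOXR2-titled libraries, against 11.2, 5.42 and 4.59 CPM in Control-titled ones, with FOXR2 replicate 3 highest and a log2 difference of 1.80 ± 0.48 at an edgeR adjusted p of 0.0862. No other member of that list but Ctnnd2 had an unadjusted p under 0.05, and the list's median log2 fold change was 0.53.

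Cadherin repressors of the epithelial-mesenchymal program had 5 tested members of 9. All 5 were fitted above 0, against 50.7% of all tested genes, their median being 0.82. Zeb2, a repressor of Cdh1, had 157, 208 and 144 CPM in FOXR2-titled libraries, against 82.7, 58.3 and 122 CPM in Control-titled ones, with a log2 difference of 0.96 ± 0.30 at an edgeR adjusted p of 0.114. Tcf4 had 1018, 857 and 589 CPM in FOXR2-titled libraries, against 521, 463 and 414 CPM in Control-titled ones, with a log2 difference of 0.82 ± 0.24 at an edgeR adjusted p of 0.102. In both the groups did not overlap. With each library corrected for length and GC content, the log2 fold change was 0.57 for Zeb2 and 0.48 for Tcf4. The edgeR adjusted p in that fit was 0.383 for Zeb2 and 0.256 for Tcf4.

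The other lists gave few differences. Among 12 proteases, Psenen, a subunit of gamma-secretase, was at 62.00 ± 11.5 CPM in FOXR2-titled libraries and 94.6 ± 28.9 CPM in Control-titled ones (mean ± SD, n = 3 each; edgeR adjusted p of 0.206), with overlapping groups. Of 20 Hippo pathway genes, the kinase gene Stk4 stood at 59.5 ± 8.03 CPM in FOXR2-titled libraries and 89.9 ± 8.68 CPM in Control-titled ones (mean ± SD, n = 3 each), and the target Ctgf at 1.33 ± 0.616 CPM in FOXR2-titled libraries and 0.354 ± 0.113 CPM in Control-titled ones. Ctgf passed the filter on low counts through the libraries titled FOXR2 alone, so a difference of some size followed from its being tested. Of 13 actin partners 0 had an unadjusted p under 0.05, and the list's smallest adjusted p values were 0.253 for Evl and 0.265 for Taok2.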

How the data were processed

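Poly(A)-selected RNA of 6 tumors was sequenced as single reads of 51 bases with a kit that keeps strand, per the labels' protocols. The authors deposited raw read counts as whole numbers per gene symbol. TopHat and DESeq2 are named without versions in the submitters' processing notes, with the human build hg19, so gene coordinates are not used; the sources used here name no counter, annotation or strand setting. Counts of overlapping or antisense genes are uncertain for that reason. The deposited sample sheet, a word per library, is opposite to the titles for 6 of 6 libraries.

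The quasi-likelihood test of edgeR 4.0.16 (R 4.3.3, filterByExpr, count minimum 10, TMM factors, no covariate) was run on the whole table, and Benjamini-Hochberg adjusted p under 0.05 was called. Standard errors are the log2 fold change over the root of F, with a prior count of 0.125. Alternatives were DESeq2 1.42.0, RLE factors, no filter, a replicate block, animal sex, a length and GC offset (mgcv 1.9.3; longest GENCODE M21 transcript by symbol, 99.4% of tested genes) and each library left out. Animal sex is not labelled and was taken per library from reads of Xist against those of Y-linked genes. Tests were tried on simulated data. Precision is limited by 3 libraries a group; floors cover counting error only.

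Members, lists and tests were chosen with earlier results of these data known. Named with full values were members with an adjusted or unadjusted p under 0.05 and the 3 most abundant per length of each family, and of partner genes the called and the 2 with the smallest p of each list, except that some genes are not reported here; a few other members are given in less detail. Promoter windows to print were chosen after values were seen.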

Additional observations from a re-analysis of the deposited data

How the results depend on the processing

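Over all genes edgeR called 300, DESeq2 1880, edgeR with animal sex as a covariate 7, and 1 to 205 without any single library. That sex was inferred from expression and was partly aligned with the groups, and the cause of the lower count was not tested. Among members, 0 were called by edgeR, 9 by DESeq2 and 0 to 1 without any single library, the 1 being Cdh13 without FOXR2 replicate 2. Among partner genes 1 was called by edgeR and 9 by DESeq2, and 0 to 1 without any single library, where the 1 (Prickle2, without FOXR2 replicate 2) is not Fuz. With animal sex as a covariate and with the length and GC offset 0 partner genes were called. At an unadjusted p under 0.05 there were 11 members higher with animal sex (8.6% of all genes), against 16 (11.9%) in the main fit. With the offset there were 13 higher and 1 lower, against 10.1% of all genes higher and 3106 of 13101 in either direction. RLE factors and no filter left the counts of called members and partners as they were, and without the filter 14 of the 30 members had an unadjusted p under 0.05 (10.5% of all genes higher). All 16 members with an unadjusted p under 0.05 kept a positive fold change in each of these fits, which share most of their libraries. The 16 were picked by their p in these same libraries, so their sign could hardly turn, and this adds no separate evidence.

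The replicate numbers are not known to pair libraries. Deviations of same-numbered libraries from their group means correlated at -0.02, -0.24 and -0.01, and 0 of 6 libraries correlated best with their own number. With the replicate number as a block 0 genes, 0 members and 0 partner genes were called by edgeR, with 2652 genes and 11 members at an unadjusted p under 0.05 (9.3% of all genes higher).

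Of the named members, the direction turned for Celsr1 without Control replicate 2 (0.032, with -1.65 the lowest over fits without 1 library), Dchs1 without FOXR2 replicate 1 (-0.0015, with 0.69 the highest), Pcdh10 with the length and GC offset (-0.096) and Fat3 with that offset (-0.22) and in 3 fits without 1 library (-0.14 to 1.04 over all 6). It also turned in at least 1 fit without a library for Cdh15 (-2.22 to 0.44), Pcdh7 (-0.27 to 0.098), Pcdh18 (-0.58 to 0.29), Pcdh19 (-0.16 to 0.57) and Pcdh20 (-1.74 to 1.13), with the offset for Pcdh17 (-0.017) and Pcdh19 (-0.13), and with the replicate block for Pcdh20 (-0.48). These 10 had no unadjusted p under 0.05 with all libraries, and the cause was not tested. At these depths 12 members were too scarce to be tested.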
